A study of Mus musculus with 11 samples.

Results

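The subject is the response to doxycycline of HT22[TR/TO-Klf9] cells, a mouse hippocampal line engineered so that doxycycline switches on a Klf9 cassette. Its members are the 5 samples of this line among the 11 samples of the series, chosen by the line named in the labels: 3 labelled vehicle and 2 labelled doxycycline. HT22 is an SV40-immortalized line of mouse hippocampal origin. The derivative carries 2 stably integrated plasmids, pCDNA6:TR, which supplies a tetracycline repressor, and pCDNA4:TO-Klf9, which holds Klf9 behind repressor sites. Both treatments of the engineered line carried both plasmids and were grown under zeocin and blasticidin selection, and the labels do not say whether the line is a single clone. Cells were plated in 10% serum at about 250000 per well and, 24 hours later, received 0.5 µg/ml doxycycline or DMSO for 8 hours. The other 6 samples are unmodified parent HT22 cells under the same vehicle (3) or doxycycline (3) treatment, and serve to show what doxycycline does without the plasmids.

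Counts under the labels TR/TO-Klf9 vehicle 3 and doxycycline 1 of the same line were equal in all 33815 rows. These columns are a single library under opposite labels, called here the identical library, and it entered no test. The comparison therefore rests on vehicle 1 and vehicle 2 against doxycycline 2, with the 6 parent libraries in the same fit to estimate the spread. The test takes the spread of the single doxycycline library to be that of the rest. Nothing in the labels tells whether replicates came from separate cultures, so the spread behind each p-value may be technical. Library totals were 12714387 counts for vehicle 1, 13326200 for vehicle 2, 11544037 for the identical library and 12354990 for doxycycline 2, and parent totals ran from 10279060 to 18858944. Levels are given as CPM, the usual count scaled to library size, here after TMM scaling, and changes as log2 of doxycycline over vehicle with their standard error (SE).

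KLF9 is a zinc finger transcription factor that binds GC-rich and GT-rich promoter elements and, with several of its relatives, can recruit the SIN3 corepressor. In hippocampal neurons its gene is induced by thyroid hormone and by glucocorticoids, and it is known for a part in the late maturation of dentate granule neurons. The study used the inducible line to look for genes that KLF9 regulates in neuronal cells.

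Klf9 was measured first, since it checks the labels. Vehicle 1 and vehicle 2 held 623 and 593 Klf9 counts (48.5 and 43.9 CPM), the identical library held 537 (46.0 CPM) and doxycycline 2 held 1324 (102.4 CPM). Doxycycline 2 stood apart from the other libraries, and the identical library lay between the vehicle libraries. Klf9 rose by 1.15 ± 0.08 (log2, SE), a 2.22-fold change, in edgeR's quasi-likelihood test (adjusted p = 7.51e-07). In parent cells its log2 change was −0.01, and the effects of doxycycline in the 2 lines differed (log2 1.16, adjusted p = 1.0e-05, interaction term of the same edgeR fit). Cassette and endogenous transcripts were not told apart in these counts.

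The neuronal identity of the line was checked against marker lists. Of 14 neuron markers 5 had enough counts to be tested, led by Syn1 (2185 counts in vehicle 1 and 2391 in doxycycline 2) and Tubb3 (180 and 140), while Map2, Rbfox3, Dcx, Gap43 and Stmn2 held at most 5 counts in any library of the line. Hippocampal genes Neurod2 and Neurod6 were at 0 in all of them. The collagen genes Col1a1, Col1a2 and Col3a1 and the intermediate filament gene Vim, markers of fibroblasts, held between 7755 and 16624 counts in each library. Of the other fibroblast markers Pdgfra, Pdgfrb and Thy1 held 457 to 1120 counts, and Dcn and Lum held at most 2. As these are bulk samples, fewer cells expressing a gene and less RNA per cell cannot be told apart.

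Most genes moved little, and the largest changes were falls. Of 13498 genes tested, 1393 fell (10.3% of genes tested) and 1053 rose (7.8%) at an adjusted p of 0.05. At 1.5-fold or more, 317 fell (2.35%) and 58 rose (0.43%), and at 2-fold or more 79 fell and 8 rose. The balance of small changes depended on the tool: DESeq2 called 1030 lower (9.29%) and 222 higher (2%) of 11087 genes, and with RLE scaling in edgeR 1503 fell and 916 rose. The median log2 change was 0.004, but TMM scaling centres the bulk of genes on no change. A shift shared by most genes could therefore not be seen here. The 1st and 99th percentiles of the log2 change were −1.84 and 0.87, and those of parent cells were −0.67 and 0.55. Doxycycline 2 lay below both vehicle libraries in 36.1% of genes and above both in 39.3%.

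**Figure D1:**
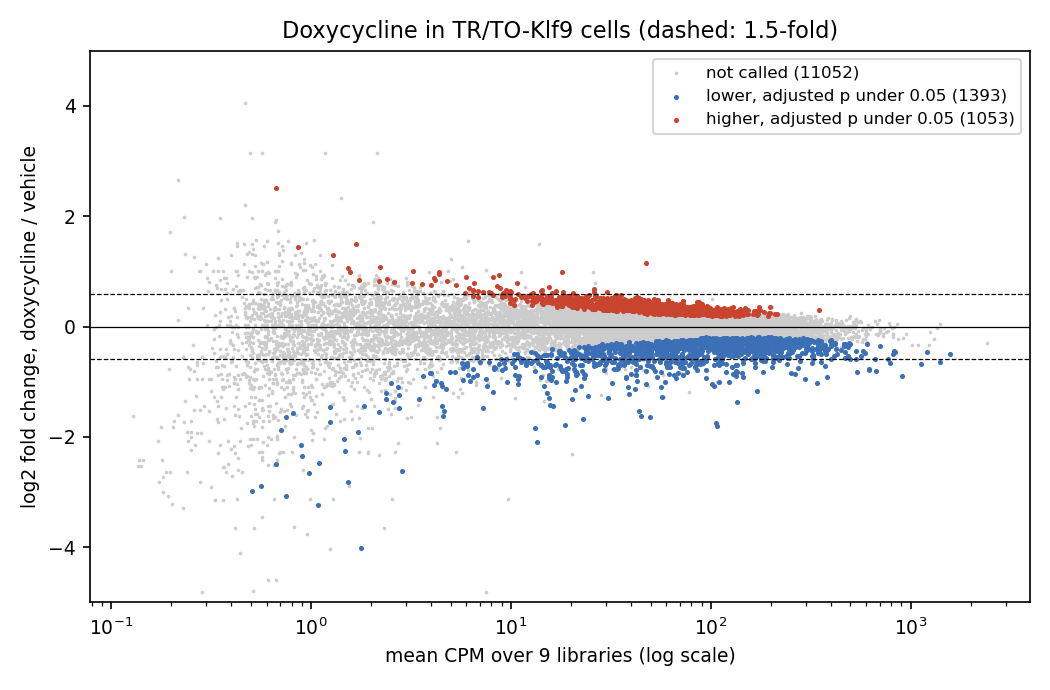
Log2 change on doxycycline in TR/TO-Klf9 cells (vertical axis) against the mean CPM over 9 libraries (horizontal log axis), 1 point per gene, with 9 genes beyond ±5 not drawn. The 1393 lower genes (blue) reach further from 0 than the 1053 higher genes (red) at levels above 10 CPM, where Klf9 stands apart among the rises.

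The plot of change against level shows that the deep falls came in 2 kinds. Of the 79 falls of 2-fold or more, 34 started from at least 8 CPM in the vehicle mean, and 33 of these were still called without vehicle 1 and 34 without vehicle 2. The other 45 started from under 8 CPM, and 26 were still called without vehicle 1 and 39 without vehicle 2. In 21 of these 45 low genes vehicle 1 was at least 1.5 times the identical library. In 12 it was at least 1.5 times vehicle 2, and in 1 vehicle 2 was at least 1.5 times vehicle 1. Choosing falls from the vehicle mean favours genes with a high vehicle library, and no share over all low genes stands beside these counts. Among the markers, vehicle 1 also held 21 counts of the synaptic gene Snap25 and 81 of the glutamate transporter gene Slc1a2, against 0 and 4 in vehicle 2, 0 and 7 in the identical library and 0 and 3 in doxycycline 2. The part of this in the falls of low genes was not tested, and among the largest falls genes under 10 CPM are not described one by one.

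The size of the response was set beside the differences between libraries of the line. Over 10271 genes of at least 8 CPM, the median absolute log2 ratio was 0.17 for doxycycline 2 over vehicle 1 and 0.16 over vehicle 2. It was 0.11 for vehicle 2 over vehicle 1. For the parent groups it was 0.04, but that is the fitted change of 3 libraries against 3, in which spread between libraries is averaged. Genes at least 1.5-fold lower numbered 352 and 285 in the first 2 ratios and 103 between the vehicle libraries. Those at least 1.5-fold higher numbered 84 and 23, against 14. With the 3 libraries of this line fitted alone, 76 genes fell (0.574% of 13241) and 1 rose (0.00755%), and all 76 falls were among the 1393. Most calls therefore rest on a spread estimated mainly from the parent libraries.

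The 30 largest falls among genes of at least 10 CPM ranged from −1.843 to −0.997 (log2). They were chosen on this contrast and on the single doxycycline library that the other fits also use. Their size is therefore a description, and a repeat call is not a separate check. All 30 were also called by DESeq2 and with the transcript length trend described further on removed, and 23 were called with this line fitted alone. In 29 of 30, all but Sphk1, the effects of doxycycline in the 2 lines differed (6.16% of genes tested were lower on that test). Over all genes tested, 9.29% were lower by DESeq2, 6.53% with the length trend removed and 0.574% with this line fitted alone. Of the 30, 11 overlap another tested gene, and their reads may include the partner's, as no source used here gives the strand setting of the counting. The identical library lay within the range of the vehicle libraries for 14 of the 30.

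**Figure D2:**
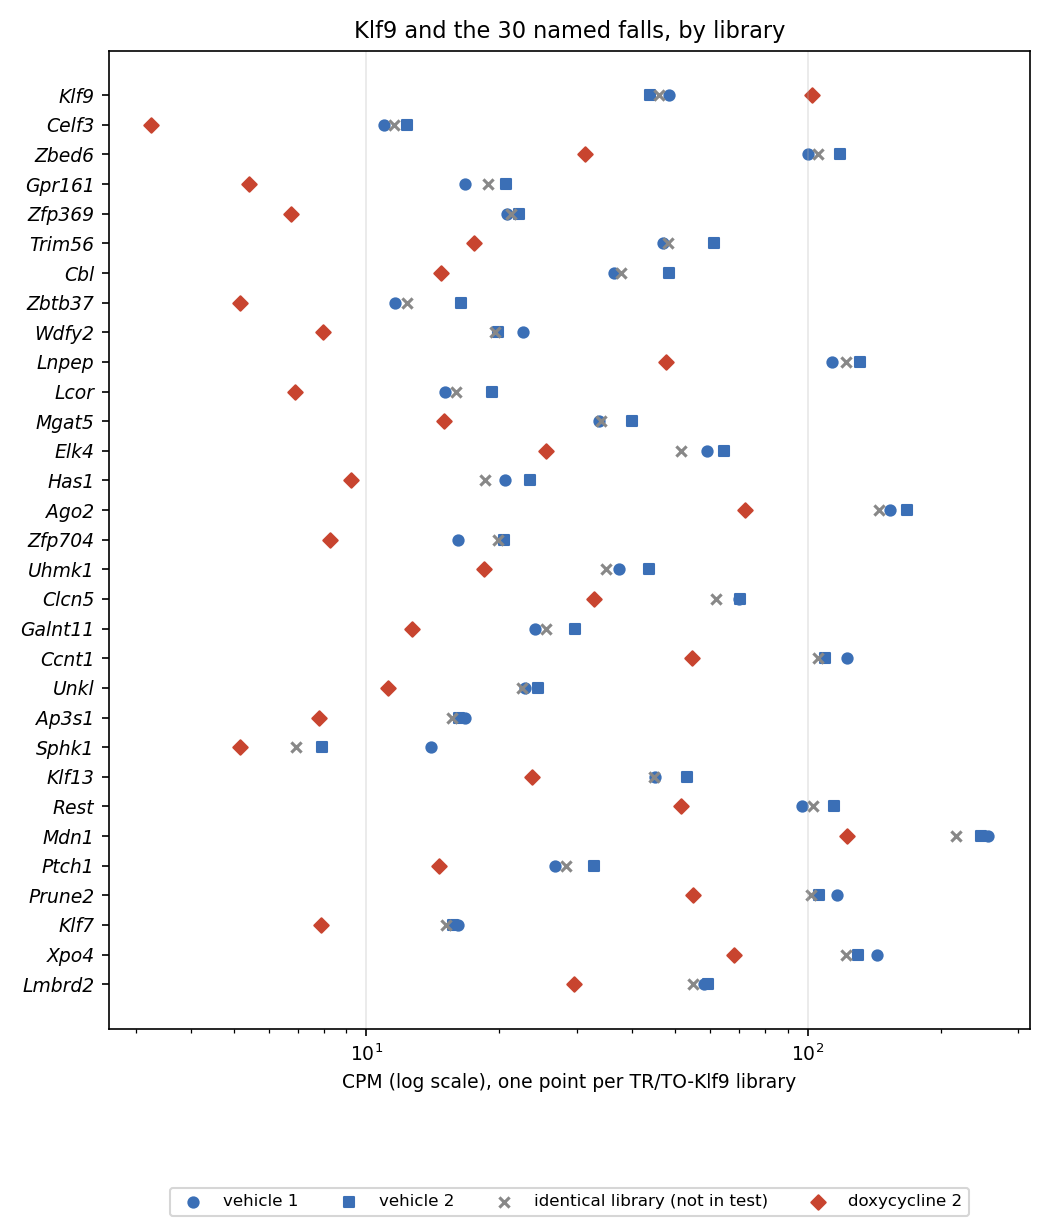
CPM on a log axis for Klf9 and the 30 named falls, 1 point per TR/TO-Klf9 library: vehicle 1 (circles), vehicle 2 (squares), the identical library (crosses, in no test) and doxycycline 2 (diamonds). Doxycycline 2 lies left of all other libraries for each fall, the crosses sit near the vehicle libraries, and for Klf9 doxycycline 2 lies to the right at 102.4 CPM.

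The 30 genes are described by known role, a grouping made by hand after they were chosen, beginning with transcription factors and repressors. Zbed6, a transcriptional repressor derived from a transposon and encoded in an intron of Zc3h11a, stood at 100.2 and 118.4 CPM in vehicle 1 and 2, 105.2 in the identical library and 31.2 in doxycycline 2. Only doxycycline 2 was low, and Zbed6 fell by 1.81 ± 0.10 (log2, SE, adjusted p = 6.96e-08 by edgeR). Its host gene Zc3h11a, which encodes an mRNA export factor, went from 266.4 and 277.5 CPM, with 268.4 in the identical library, to 151.5, and fell by 0.84 ± 0.08. The loci overlap, so host and guest may share reads.

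Klf13, a close relative of Klf9 that also recruits SIN3, stood at 45.0 and 53.2 CPM in the vehicle libraries, 44.9 in the identical library and 23.7 in doxycycline 2. It fell by 1.05 ± 0.11 (log2, SE, adjusted p = 1.99e-05 by edgeR), with no overlap between doxycycline 2 and the other libraries. Klf7, a relative known for axon growth, went from 16.1 and 15.7 CPM to 7.89 (log2 −1.01 ± 0.14). Rest, the zinc finger repressor of neuronal genes outside neurons, went from 97.0 and 114.8 CPM, with 102.5 in the identical library, to 51.6 (log2 −1.04 ± 0.09). Elk4, an ETS factor that acts with serum response factor, went from 58.9 and 64.6 to 25.5 CPM, with 51.6 in the identical library, below both vehicle libraries but nearer to them. Lcor, a ligand-dependent nuclear receptor corepressor, fell by 1.32 ± 0.21 from 15.03 and 19.2 CPM. The zinc finger genes Zfp369, Zbtb37 and Zfp704 fell by 1.68, 1.43 and 1.15, and Zbtb37 shares its locus with the growth arrest RNA Gas5.

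The next genes act in RNA metabolism, ribosome assembly, transcript elongation or nuclear export. Celf3, a splicing regulator best known from brain, stood at 10.98 and 12.4 CPM in the vehicle libraries, 11.6 in the identical library and 3.25 in doxycycline 2. It had the largest change of the 30 and was also among the lowest in level, with a change of −1.84 ± 0.25 (log2, SE, adjusted p = 1.47e-04 by edgeR). Ago2, the argonaute that cleaves targets of small RNAs, is far more abundant and went from 153.6 and 168.0 CPM, with 144.9 in the identical library, to 72.0 (log2 −1.16 ± 0.08). Mdn1, a giant ATPase of large ribosomal subunit assembly, went from 255.9 and 246.3 CPM to 123.0, and its change of −1.03 became −0.62 with the length trend removed. Ccnt1, the cyclin of the elongation kinase P-TEFb, fell by 1.08 ± 0.08 from 122.4 and 109.3 CPM. Xpo4, a nuclear exportin, went to 68.1 CPM from 143.3 and 130.0 CPM, and Unkl, a zinc finger relative of unkempt, fell by 1.08.

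The genes described next encode signalling and ubiquitin proteins. Gpr161, a ciliary receptor that keeps hedgehog signalling low, stood at 16.7 and 20.7 CPM in the vehicle libraries, 18.8 in the identical library and 5.41 in doxycycline 2 (log2 −1.79 ± 0.17). Ptch1, the hedgehog receptor and itself a hedgehog target gene, went from 26.7 and 32.8 CPM to 14.6 (log2 −1.03 ± 0.13). Trim56, a ubiquitin ligase of innate immune signalling, went from 46.9 and 61.4 CPM, with 48.3 in the identical library, to 17.5, and fell by 1.63 ± 0.15 (log2, SE). The tyrosine kinase regulator Cbl, also a ubiquitin ligase, went from 36.4 and 48.5 CPM, with 37.8 in the identical library, to 14.8, and fell by 1.52 ± 0.15. In both genes vehicle 2 was the highest library and doxycycline 2 the lowest, with a gap between it and the rest. Wdfy2, an endosomal protein that binds AKT, fell by 1.42, and the kinase gene Uhmk1 by 1.13. Sphk1, the sphingosine kinase gene, is the least secure of the 30: it stood at 14.0 and 7.92 CPM in vehicle 1 and 2, 6.93 in the identical library and 5.18 in doxycycline 2, and its adjusted p of 0.0247 (edgeR) became 0.056 without vehicle 1.

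Most remaining named falls encode proteins of membranes, trafficking and the cell surface. Lnpep, an aminopeptidase that travels with GLUT4 vesicles, stood at 113.2 and 131.3 CPM in the vehicle libraries, 122.1 in the identical library and 47.6 in doxycycline 2 (log2 −1.36 ± 0.09). The glycosyltransferase genes Mgat5 and Galnt11 fell by 1.30 and 1.09, and Has1, a hyaluronan synthase, by 1.26. Clcn5, an endosomal chloride-proton exchanger, had nearly equal vehicle values, 69.9 and 70.1 CPM, and 32.8 in doxycycline 2. The adaptor subunit gene Ap3s1 fell by 1.08, Prune2 fell by 1.01 and Lmbrd2 fell by 0.997. These 30 genes lie on 14 chromosomes of the RefSeq GRCm38.p6 annotation, 7 of them on chromosome 1, which holds 5.74% of the tested genes. It holds 7.99% of the 313 falls of 1.5-fold or more with a listed chromosome, and clustering was not tested.

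KLF factors bind GC-rich and GT-rich letters, so the promoters of Klf13 and of the 5 largest falls with an entry in the table are shown. They come from RefSeq on build GRCm38.p6, from 250 bases before to 50 after the start, 5′ to 3′ on the strand of the gene. Capitals mark the GC-rich motif GGGCGTG, the GC box motif GGGCGG and the GT-rich motif GGGTGTG, each searched on both strands, and neighbouring matches may share bases. Celf3 and Gpr161 have several listed starts, 7 and 2, and the first is shown.
Klf13, chr7:63938866-63939165, minus strand: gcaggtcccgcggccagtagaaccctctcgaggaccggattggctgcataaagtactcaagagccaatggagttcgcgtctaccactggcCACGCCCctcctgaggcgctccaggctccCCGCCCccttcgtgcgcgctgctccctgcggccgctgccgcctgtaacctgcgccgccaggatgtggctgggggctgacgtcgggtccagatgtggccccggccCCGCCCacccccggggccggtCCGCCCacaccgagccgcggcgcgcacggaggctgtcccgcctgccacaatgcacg
Zbed6, chr1:133660836-133661135, minus strand: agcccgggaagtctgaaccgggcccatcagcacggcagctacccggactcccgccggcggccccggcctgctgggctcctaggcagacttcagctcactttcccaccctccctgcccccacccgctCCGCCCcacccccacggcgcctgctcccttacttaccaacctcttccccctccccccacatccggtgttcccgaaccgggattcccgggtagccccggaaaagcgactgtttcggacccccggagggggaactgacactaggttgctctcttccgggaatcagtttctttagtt
Celf3, chr3:94482472-94482771, plus strand: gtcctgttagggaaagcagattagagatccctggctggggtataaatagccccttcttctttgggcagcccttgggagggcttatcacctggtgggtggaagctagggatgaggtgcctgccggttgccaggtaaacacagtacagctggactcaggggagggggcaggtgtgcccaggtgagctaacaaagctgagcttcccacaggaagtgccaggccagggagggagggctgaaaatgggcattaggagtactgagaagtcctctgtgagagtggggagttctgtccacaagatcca
Gpr161, chr1:165295516-165295815, plus strand: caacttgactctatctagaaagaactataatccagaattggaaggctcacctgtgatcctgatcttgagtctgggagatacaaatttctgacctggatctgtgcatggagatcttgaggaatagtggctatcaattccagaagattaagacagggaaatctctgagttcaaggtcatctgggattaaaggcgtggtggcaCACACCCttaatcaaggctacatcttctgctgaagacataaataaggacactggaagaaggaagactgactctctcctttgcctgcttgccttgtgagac
Trim56, chr5:137116158-137116457, minus strand: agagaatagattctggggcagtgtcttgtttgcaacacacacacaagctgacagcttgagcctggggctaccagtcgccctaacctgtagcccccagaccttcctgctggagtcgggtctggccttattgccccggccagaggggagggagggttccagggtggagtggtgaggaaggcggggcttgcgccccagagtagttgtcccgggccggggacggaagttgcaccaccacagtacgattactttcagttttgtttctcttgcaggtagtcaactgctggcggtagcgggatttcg
Cbl, chr9:44233997-44234296, minus strand: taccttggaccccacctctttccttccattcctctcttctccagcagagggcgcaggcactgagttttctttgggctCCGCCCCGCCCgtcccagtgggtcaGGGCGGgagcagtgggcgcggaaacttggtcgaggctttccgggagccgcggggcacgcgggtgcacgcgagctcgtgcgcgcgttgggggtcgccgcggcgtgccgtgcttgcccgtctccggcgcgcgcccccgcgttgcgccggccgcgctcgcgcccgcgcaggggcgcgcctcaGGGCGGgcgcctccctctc

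The 6 promoters differ widely in these letters. That of Klf13 holds GGGCGTG 1 time and GGGCGG 3 times at a GC content of 72%, and that of Cbl holds GGGCGG 4 times at 74%. Zbed6 has GGGCGG 1 time, Gpr161 has GGGTGTG 1 time at a GC content of 44%, and the windows of Celf3 and Trim56 hold none of the 3. Across genes the shares with GGGCGTG were close: 15.6% of 256 falls of 1.5-fold or more with a promoter in the table, against 15.2% of the 10503 tested genes with one and 8.60% of all 27025 promoters. GGGCGG was found in 66.4% of the falls, 63.1% of tested genes and 35.9% of all promoters, and in 46.0% of 63 falls of 2-fold or more. GGGTGTG was found in 14.1%, 8.28% and 7.85%. Of 52 rises of 1.5-fold or more, 9.62% held GGGCGTG, 30.8% GGGCGG and 5.77% GGGTGTG. A match is a description of letters in this window and is not a binding site.

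Rises were fewer and smaller. After Klf9 the 14 next largest rises, among genes of at least 10 CPM in doxycycline 2, ranged from 0.90 down to 0.62 (log2). They were chosen on the doxycycline library that the other fits also use, so a repeat call is not a separate check. Over all genes tested, 2% were higher by DESeq2 and 4.31% with the length trend removed. Of the 15 including Klf9, 8 were also called by DESeq2, 11 with the length trend removed, and in 9 the effects differed between the lines (3.37% of genes tested were higher on that test). Klf9 alone was called with this line fitted by itself. The lysosome positioning gene Borcs5 went from 7.01 and 8.73 CPM in the vehicle libraries, with 8.56 in the identical library, to 14.8 in doxycycline 2 (log2 0.90 ± 0.19, adjusted p = 0.00412 by edgeR). Syce2, a component of the meiotic synaptonemal complex, went from 7.94 and 8.73 to 14.4 CPM (log2 0.78 ± 0.15). Map2k6, a kinase that activates p38, went from 12.1 and 12.2 to 19.9 CPM, with 14.9 in the identical library (log2 0.71 ± 0.13).

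Rilpl2, a ciliary and lysosomal adaptor, stood at 23.0 and 23.5 CPM in the vehicle libraries, with 25.1 in the identical library and 37.4 in doxycycline 2 (log2 0.69 ± 0.11). Mitd1, an ESCRT-binding protein of cell division, went from 23.7 and 26.2 to 38.4 CPM, with 29.2 in the identical library. Dgat2, the triglyceride synthesis enzyme gene, and the homeobox gene Hlx rose by 0.66 each, but neither was called without vehicle 1 (adjusted p = 0.052 and 0.106 by edgeR), and Tstd3 was not either (0.056). The scaffold gene Card14 rose by 0.65, the glutamate receptor scaffold gene Grip1 by 0.64 and the adaptor subunit gene Ap5s1 by 0.62. The others were Ccdc189, Wdr54 and Dand5, a secreted nodal antagonist.

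The identical library was placed between the groups for the genes that changed most, without using it in the test. Over 253 falls of 1.5-fold or more at 8 CPM or more, its position on a log2 scale from the vehicle mean (0) to doxycycline 2 (1) had a median of 0.12 and quartiles of 0.024 and 0.26. It was nearer to the vehicle mean in 233 of the 253 and nearer to doxycycline 2 in 20. It lay within the range of the 2 vehicle libraries in 101. For 19 rises the median position was 0.24, with 16 nearer to the vehicle mean and 3 nearer to doxycycline 2. Which of its labels applies was not settled by the labels, and its position is a description.

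**Figure D3:**
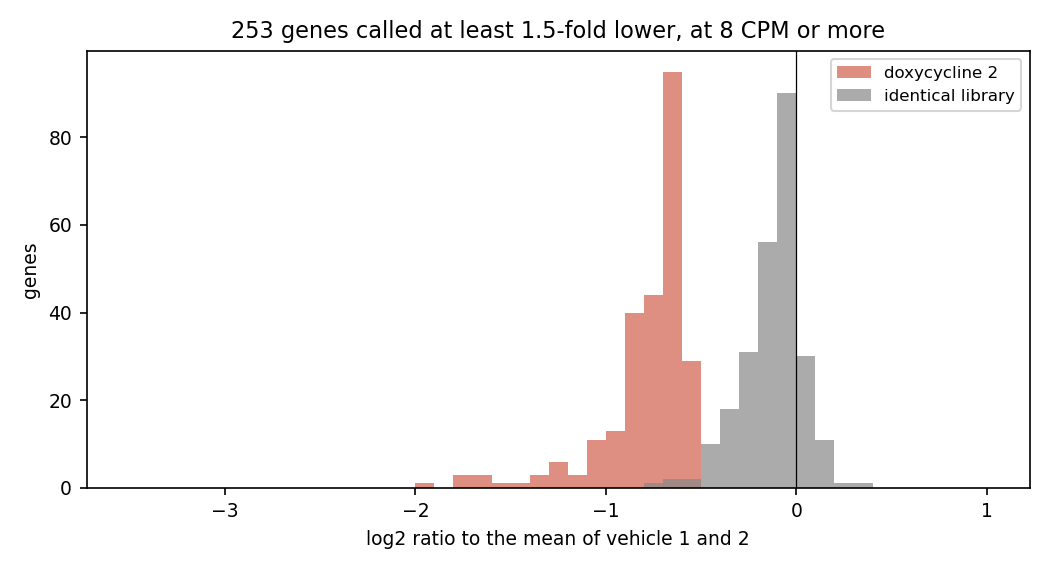
Number of genes (vertical axis) by log2 ratio to the mean of vehicle 1 and vehicle 2 (horizontal axis) for the 253 genes called at least 1.5-fold lower at 8 CPM or more, in doxycycline 2 (red, the values that chose the genes) and in the identical library (grey). The grey values lie mostly between −0.5 and 0.2, with few in the range of the red ones.

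Treating this library as doxycycline or vehicle gave very different counts. With it added to the vehicle libraries 2474 genes were called and 279 fell at least 1.5-fold. With it added to doxycycline, or under both labels, none was called by edgeR, against 2034 and 1506 genes at an unadjusted p under 0.05.

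Gene lists described the falls by function; each list's counts stand beside the 10.3% of tested genes that fell and 7.8% that rose, and beside the counts with the length trend removed (6.53% fell, 4.31% rose). Chromatin modifiers and corepressors came first among the lists of functions, marker lists aside: 33 of 66 tested fell and 1, Rcor2, rose, with a median log2 change of −0.28 against 0.004 over all genes. The methyltransferase gene Kmt2d went from 391.1 and 338.6 CPM, with 310.8 in the identical library, to 194.0 in doxycycline 2, and fell by 0.91 ± 0.09 (log2, SE). Kmt2a fell by 0.86 ± 0.08, and the histone deacetylase gene Hdac4 by 0.72 ± 0.10. The list has a median transcript of 6158 nt, and with the length trend removed 13 fell, 1 rose and the median was −0.13. Rest, Kmt2d, Kmt2a and Hdac4 still passed then, at −0.85, −0.48, −0.47 and −0.50, whereas Sin3a, which fell by 0.25, did not.

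In the KLF and SP family 7 of 16 fell and Klf9 rose, and with the length trend removed 3 fell: Klf13, Klf7 and Klf16, the last from 62.0 and 60.8 CPM to 38.1. Klf11, Klf5, Sp1 and Klf3 fell by 0.59, 0.52, 0.37 and 0.24 and did not pass with the trend removed. ZBTB factors, BTB zinc finger proteins that mostly repress, fell in 13 of 37 and rose in 1 (6 and 2 with the trend removed), with Zbtb38, Zbtb12 and Zbtb2 at −0.61, −0.57 and −0.52 after Zbtb37. Zbtb2 was not called without vehicle 1 (adjusted p = 0.059 by edgeR).

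Signalling lists had lower shares. In the PI3K, AKT and mTOR list 10 of 34 fell and none rose (6 and 2 with the trend removed), led by the forkhead factor Foxo3 (log2 −0.79 ± 0.16), the insulin receptor substrate Irs2 (−0.71 ± 0.11) and Tsc1, a brake on mTOR (−0.57 ± 0.08, and −0.36 with the trend removed). Rptor, the raptor subunit, fell by 0.46 and did not pass with the trend removed. In the Wnt and Hippo list 11 of 40 fell and 1 rose (4 and 1), with Tead4, the Hippo-pathway DNA-binding factor, at −0.65 and Mob1a, a kinase adaptor, at −0.50. The ubiquitin ligase list had 12 of 55 lower and 1 higher (8 and 2), with Mdm4, a p53 inhibitor, at −0.67 after Trim56 and Cbl. RNA-binding and splicing regulators had 8 of 50 lower (5), with Cpeb2 and Rbfox2 at −0.56 and −0.44, neither passing with the trend removed. Receptor tyrosine kinase and Ras-MAPK genes had 6 of 38 lower and 1 higher (3 and 2), with Dusp4, Shc1, Nf1 and Spred2 at −0.50 to −0.34. With the trend removed Nf1 stood at −0.03 and did not pass, and Dusp4 was not called without parent vehicle 2 (adjusted p = 0.051 by edgeR). The hedgehog and cilium list had 5 of 34 lower and 2 higher (4 and 3), with Kif7 and Cdon at −0.59 and −0.48 after Gpr161 and Ptch1, and Cdon did not pass with the trend removed (−0.29). These shares are descriptions of lists chosen with earlier results known.

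**Figure D4:**
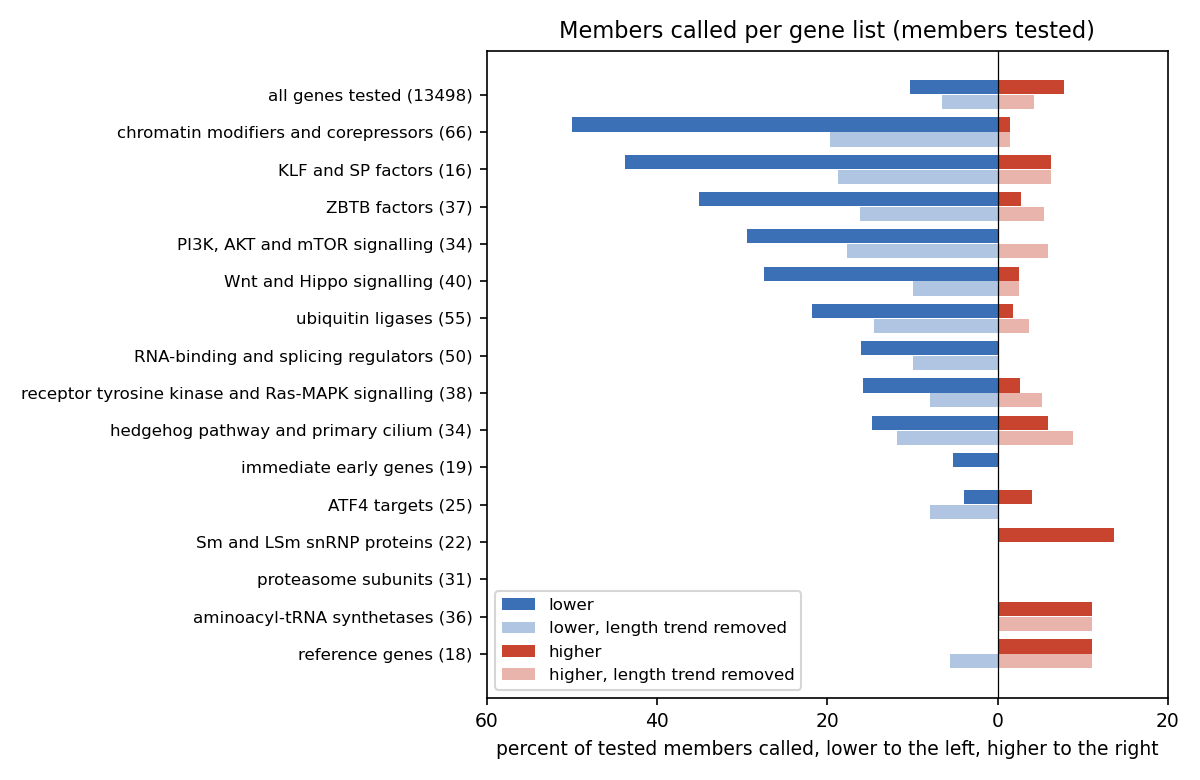
Percent of tested members called lower (blue, to the left) and higher (red, to the right) per gene list, with the number of members tested in brackets, in the fit as reported (dark) and with the transcript length trend removed (light). The chromatin, KLF and ZBTB lists reach furthest left in dark and shrink to under 20% in light, and proteasome genes have no bar.

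Lists for general cell functions changed little. None of 31 proteasome genes was called by edgeR (1 lower by DESeq2), although the sum of their CPM was 4535 in vehicle 1, 3713 in vehicle 2 and 4248 in doxycycline 2, so that the vehicle libraries differed from each other by more than either did from doxycycline 2. Of 22 spliceosomal Sm and LSm genes 3 rose, Snrpa1, Lsm3 and Lsm2, by 0.32, 0.26 and 0.25, and none did with the trend removed. Of 36 aminoacyl-tRNA synthetase genes 4 rose, Farsb, Qars, Yars2 and Hars, by 0.31 to 0.23. With the trend removed 4 rose as well, not all of them the same genes. Of 25 ATF4 target genes Chac1 rose by 0.30 and Sesn2 fell by 0.31 (2 fell and 0 rose with the trend removed). Of 19 immediate early genes only Fosl2 was called, at −0.25 (0 with the trend removed). Lsm3 and Chac1 were not called without vehicle 2 (adjusted p = 0.079 and 0.087 by edgeR), and Lsm2 and Hars were not without parent doxycycline 1 (0.058 and 0.054). With the length trend removed Yars2, Hars, Chac1 and Fosl2 did not pass, at 0.14, 0.16, 0.20 and −0.08. Among 18 reference genes, used for normalization in PCR work, Gusb and Tbp rose by 0.34 and 0.28, and by 0.30 and 0.62 with the trend removed. The transcript assigned to Tbp was 12794 nt long, of which 11599 nt were 3′ UTR. Its value of 0.62 depends on that assigned length and on the fitted trend. With it removed 1 other reference gene fell. Of the marker lists, Elavl3 fell among 5 tested neuron markers (log2 −1.44 ± 0.37, from 3.19 and 2.74 CPM), Mbp fell among 2 oligodendrocyte markers (−1.45, and adjusted p = 0.154 without vehicle 1, edgeR) and Thy1 rose among 8 fibroblast markers (0.26, and 0.17 with no call once the trend was removed). Mbp started from 2.73 and 1.55 CPM. In the identical library Elavl3 stood at 1.97 and Mbp at 1.11 CPM, below both vehicle libraries, and in doxycycline 2 at 1.08 and 0.77. No tested astrocyte, microglia, endothelial or hippocampal neuron marker was called by edgeR, and by DESeq2 1 astrocyte marker was higher.

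Transcript length went with the change, the check that the analysis of this line called for. In 5 bins of transcript length with nearly equal numbers of genes, from 43 to 1520 nt up to 4709 nt and longer, the median log2 change was 0.13, 0.08, 0.03, −0.03 and −0.18. In the shortest bin 13.8% rose and 2.87% fell, and in the longest 1.70% rose and 28.6% fell. The median transcript was 5097 nt long for falls, 1877 nt for rises and 2796 nt for all tested genes. Spearman's rank correlation between length and change was −0.34 over 13220 genes, a correlation across genes of the same libraries and not over replicates, and −0.004 in parent cells. Coding length gave −0.38, 3′ UTR length −0.18, number of exons −0.24 and transcript GC content 0.003.

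**Figure D5:**
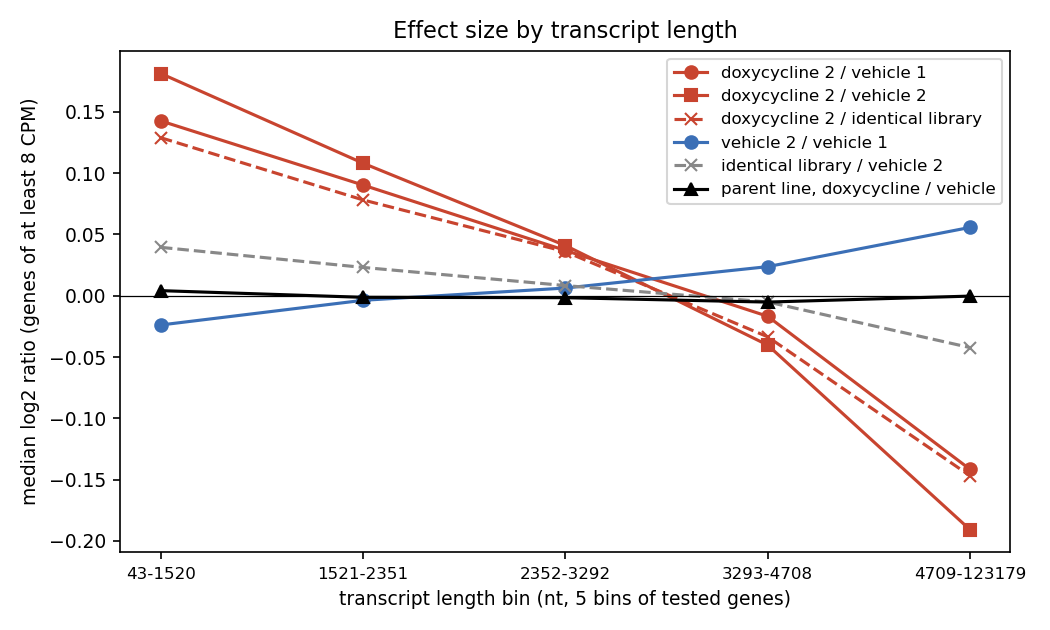
Median log2 ratio (vertical axis) of genes of at least 8 CPM in 5 bins of transcript length (horizontal axis, nt) for 6 pairs of libraries or groups. The 3 ratios with doxycycline 2 (red) fall from 0.18 at most to −0.19 at least, vehicle 2 over vehicle 1 (blue) rises from −0.02 to 0.06, the identical library over vehicle 2 (grey) goes from 0.04 to −0.04, and the parent ratio (black) stays near 0.

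Smaller length trends were also present between libraries other than doxycycline 2. Over 10142 genes, the rank correlation with length was 0.16 for vehicle 2 over vehicle 1, −0.27 for the identical library over vehicle 2, 0.006 for the identical library over vehicle 1, and −0.46 for doxycycline 2 over the identical library. In medians, the step from the shortest to the longest bin was larger for doxycycline 2 than between the other libraries, as the plot of change by transcript length shows. With 1 doxycycline library, treatment and library cannot be told apart as the source of the trend.

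Length differed between sets of falls. Falls of at least 2-fold had a median length of 3232 nt, against 4359 nt for those of at least 1.5-fold. The 30 named falls, all from at least 10 CPM, had a median of 6521 nt. The bins held 16, 8, 14, 13 and 24 of the 2-fold falls from shortest to longest. With each library's trend on log2 length removed, 881 genes fell (6.53%) and 582 rose (4.31%), and 753 of the 1393 falls and 395 of the 1053 rises were called again in the same direction. Of the 317 falls of at least 1.5-fold 277 were called again, and of the 79 of at least 2-fold 68 were.

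Requiring a call in the fit as reported, with the length trend removed and with this line fitted alone left 71 falls and the rise of Klf9. Of the 71, 70 also differed between the lines, and 70 were also called by DESeq2. Over all genes tested, 6.16% and 9.29% were lower on these tests. The set was chosen on the same doxycycline library that these tests use, so this agreement was nearly fixed in advance. The fit as reported and the fit of this line alone still carried the length trend. Removing the trend within the fit of this line alone left far fewer calls, as given with the alternative runs below. The log2 changes of the 71 had a median of −0.91, and their median transcript was 7415 nt. Only 12 of the 71 had a transcript shorter than the median of tested genes. Length here is that of a GENCODE transcript linked to the row kept, which for Ahnak is 830 nt. Beside genes already named, the set holds members singled out after their values were seen. Dync1h1, the dynein motor heavy chain gene, went from 1066 and 870.6 CPM, with 798.5 in the identical library, to 518.9 in doxycycline 2, and its log2 change moved from −0.90 to −0.54 with the trend removed. Mib1, a ubiquitin ligase of Notch ligands, went from 88.3 and 96.4 to 48.6 CPM, with a log2 change of −0.93 before and after removal of the trend and a transcript of 3216 nt. The disulfide isomerase gene Pdia5 went from 222.7 and 238.4 to 130.8 CPM on a transcript of 1809 nt, and its change moved from −0.82 to −0.91. Ago3, a relative of Ago2, and the exonuclease gene Xrn1 both fell by 0.82, and with the trend removed stood at −0.44 and −0.70.

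Parent cells given the same dose for the same time were set beside these values. None of the 13498 genes was called there (0% of genes tested by edgeR, 0 by DESeq2, 0 by limma-voom), with 291 at an unadjusted p under 0.05 by edgeR. The 30 named falls had parent log2 changes between −0.31 and 0.23, and the 15 named rises between −0.21 and 0.18. A test of the difference between the lines called 1287 genes (9.53%), 832 lower in the engineered line and 455 higher.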

How the data were processed

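Per the labels' protocols, total RNA was extracted with TRIzol and oligo-dT primed libraries were sequenced. The authors deposited whole numbers, the read count of each RefSeq transcript in each sample, without normalization, as the values show. The submitters' processing notes name Bowtie, CASAVA, DESeq and FastQC and build mm8, and no source used here gives the counting program, strand setting or versions. Of 33815 rows, 32923 distinct accessions were paired with symbols in 32685 cases through RefSeq's GRCm38.p6 table. Each of 24080 genes was represented by its row of highest mean count. Accessions without a symbol held 0.689% to 0.752% of the counts.

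Samples were grouped by title. The 2 columns with identical counts were left out, which leaves 9 libraries, 4 group means and 5 residual degrees of freedom. Genes were filtered with filterByExpr, TMM-scaled and fitted in edgeR 4.0.16 under R 4.3.3 (quasi-likelihood, robust), giving 13498 genes and a common dispersion of 0.0023 (coefficient of variation 4.78%). Adjusted p-values follow Benjamini-Hochberg over all genes tested, with a threshold of 0.05. Library ratios used a pseudocount of 0.5 CPM. Transcript lengths came from GENCODE M21 by accession for 13220 genes (97.9%). Where several transcripts were linked to an accession, the one of middle length was taken. Each library's trend on log2 length was fitted by loess (span 0.4) and entered as an offset. Alternatives were DESeq2 1.42.0, limma-voom 3.58.1, other scalings and filters, summed rows, the identical library under either label, the replicate block, this line alone and leaving out each library. The test was checked on simulated counts.

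Named genes were Klf9, Klf13 and Zbed6, the 30 largest falls and 15 largest rises past the threshold at 10 CPM or more, outside both vehicle libraries and with no clone-type name, and up to 4 called members of each of 23 lists. The members and lists were chosen with earlier results of these data known. Results of 1 list are not reported here.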

Additional observations from a re-analysis of the deposited data

Results flagged for a closer look

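The effect of doxycycline differed between the engineered and the parent line, by the interaction term of the edgeR fit at an adjusted p of 0.05, for 38 of the genes named as markers or as the largest falls and rises. The values are log2 differences, the TR/TO-Klf9 effect minus the parent effect, and they share the single doxycycline library of the engineered line.

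The 29 lower genes were led by Zbed6 (−1.88), Gpr161 (−1.81), Celf3 (−1.75), Zfp369 (−1.68), Trim56 (−1.63), Cbl (−1.47), Wdfy2 (−1.45), Lnpep (−1.41), Lcor (−1.39) and Elk4 (−1.31). Next came Ap3s1 (−1.30), Zbtb37 (−1.29), Has1 (−1.28), Mgat5 (−1.26), Ago2 (−1.15), Galnt11 (−1.14), Uhmk1 (−1.13), Klf13 (−1.10), Ccnt1 (−1.06) and Mdn1 (−1.06). The smallest of these differences were those of Unkl (−1.06), Clcn5 (−1.05), Xpo4 (−1.04), Rest (−1.03), Klf7 (−1.02), Prune2 (−1.01), Lmbrd2 (−0.98), Ptch1 (−0.96) and Zfp704 (−0.94).

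The 9 higher genes were Klf9 (1.16), Borcs5 (1.04), Syce2 (0.92), Ccdc189 (0.86), Dand5 (0.76), Rilpl2 (0.75), Card14 (0.72), Map2k6 (0.70) and Mitd1 (0.65).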

How the results depend on the processing

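The 90 named genes kept their direction under each alternative run, except that DESeq2 gave no adjusted p for Elavl3 and Mbp, which were not compared there. Doxycycline in TR/TO-Klf9 cells called 2446 genes, 317 with a fall and 58 with a rise of at least 1.5-fold, and the difference of the doxycycline effects between the lines called 1287. With DESeq2 these were 1252 calls, 14 rises of 1.5-fold and 668 differences. With the length trend removed there were 1463 calls and 581 differences. With the identical library as doxycycline, or under both labels, all 4 counts were 0 by edgeR. With only TR/TO-Klf9 libraries 77 were called, 74 falls and 1 rise of 1.5-fold, and with the length trend removed as well 19, 17 and 2. Leaving out each library in turn gave 1892 to 3791 calls, 288 to 637 falls, 45 to 168 rises and 565 to 2905 differences, with the highest of each without TR/TO-Klf9 vehicle 2. Leaving out TR/TO-Klf9 vehicle 1 gave 2040 differences. Those left without parent doxycycline 1, 2 and 3 were 615, 626 and 565, and there were 711 without parent vehicle 3. The cause was not tested. RLE scaling, limma-voom, other filters, summed rows, other TMM references (chosen after seeing the data) and the identical library as vehicle moved no count by over 1.5 times.

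Replicate numbers did not pair the parent samples: same-numbered deviations correlated at −0.05, 0.01 and 0.02. With the replicate block 1335 genes were called and 554 differed between the lines. In the shortest of 5 transcript length bins the median log2 change of 0.13 was 0.18 against vehicle 2 alone and 0.16 for genes of at least 8 CPM. Of 34 falls of 1.5-fold in the middle length bin with a promoter, 58.8% held GGGCGG, against 62.7% of tested genes in that bin. Over all lengths these shares were 66.4% and 63.1%. Of the 90 named genes, 61 were not called with only TR/TO-Klf9 libraries, 18 with the length trend removed and 19 of 88 by DESeq2.

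The fit rests on 1 doxycycline library and on a coefficient of variation of 4.78% taken mainly from the parent libraries, and genes at a few CPM carry a larger counting error.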
